A study of Mus musculus with 8 samples.

Results

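The 5 mouse genes described here, Rdh16f1, Trim5, Ccdc107, Ttyh1 and Vps33a, were chosen because they stood higher in serum exosome RNA of mice carrying a canine bone tumour than in mice without one. They are 5 of 31300 mouse genes in a table of 52016 mouse and canine genes. Rdh16f1 and Trim5 were taken because both were listed at 0 in the 4 tumour-free libraries while each of the 4 tumour libraries held 5 or more. Ccdc107, Ttyh1 and Vps33a were taken because they rose in at least 1 tumour line. The values in these contrasts therefore chose the genes and are given as a description. Exosomes are vesicles of membrane released by cells, and the mice were immunodeficient NCr nu/nu animals. The 8 libraries fall into 4 groups of 2. Week 0 libraries come from serum of all mice before any injection, and the other 3 groups from serum at necropsy in week 8, after 10 µl of phosphate-buffered saline (PBS) or 100000 cells of the canine osteosarcoma line OSCA-32 or OSCA-40 had been put into the tibia. Serum was pooled within each group, and the labels do not tell whether paired libraries stem from different animals. The p-values therefore reflect library-to-library spread alone, possibly technical.

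The 5 genes have different roles. Rdh16f1 belongs to the short-chain dehydrogenases that oxidise retinol, a step on the way to retinoic acid, and that are best known from liver; it lies in a cluster of close copies. Trim5 belongs to a family of tripartite-motif proteins known for binding the capsids of incoming retroviruses, and in the mouse it too lies in a cluster of copies. Ccdc107 encodes a little-studied protein with a predicted coiled coil, Ttyh1 a membrane protein of the tweety family known mostly from brain, and Vps33a a subunit of the HOPS and CORVET complexes, which tether endosomes and lysosomes before they fuse. kallisto, the tool named in the submitters' processing notes, matches reads to transcripts by short subsequences and divides a read that fits several transcripts among them. What a gene shares with other genes therefore bears on its value and is shown first.

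Rdh16f1 (ENSMUSG00000099009, chromosome 10, 127759787 to 127792694, plus strand, GRCm38) had no subsequence of 31 bases of its own among the listed mouse genes. Its 1 annotated transcript, of 2766 bases and 4 exons, joins the first exon of Rdh1 to the exons 2 to 4 of Rdh9: 464 of its bases lie in the Rdh1 exon and 2302 in Rdh9 exons. Of its 2736 different subsequences of 31 bases, the default length of kallisto, 0 were found in Rdh16f1 alone, 573 were in Rdh1 and 2444 in Rdh9, and every one was in Rdh1 or Rdh9. Further relatives held part of the same sequence: 586 (21.4%) were also in Rdh16, the next gene on the chromosome, and 161 (5.88%) in Rdh16f2. Such genes were uncommon: 1289 of 31171 mouse genes (4.14%) had none of their own, and the median gene had 97.7% of its own. The coding sequence around the join of exons 1 and 2 is shown because it is the one place where Rdh16f1 could differ from both neighbours. Capitals mark bases that differ from Rdh16f1.
Rdh16f1, chr10:127760161-127760250 and chr10:127788608-127788697: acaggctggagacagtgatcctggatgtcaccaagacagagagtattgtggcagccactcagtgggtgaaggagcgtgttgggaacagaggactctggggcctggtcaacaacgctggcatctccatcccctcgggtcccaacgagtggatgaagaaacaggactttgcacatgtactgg
Rdh1, chr10:127760161-127760250 and chr10:127762965-127763054: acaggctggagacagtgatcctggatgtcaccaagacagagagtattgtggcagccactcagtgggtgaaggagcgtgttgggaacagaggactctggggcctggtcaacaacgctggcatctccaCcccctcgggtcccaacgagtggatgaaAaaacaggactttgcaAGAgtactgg
Rdh9, chr10:127776708-127776797 and chr10:127788608-127788697: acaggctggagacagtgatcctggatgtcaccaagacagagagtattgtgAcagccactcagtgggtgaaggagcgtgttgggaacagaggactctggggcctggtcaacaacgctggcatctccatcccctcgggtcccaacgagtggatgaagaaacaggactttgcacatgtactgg
In the 90 bases before the join Rdh1 was identical and Rdh9 differed at 1 base. In the 90 bases after it Rdh9 was identical and Rdh1 differed at 5. Rdh1 stayed identical for 36 bases past the join and Rdh9 for 39 bases before it, so a subsequence of 31 bases across the join is in both genes. A longer read that covers differing bases on both sides of the join would match neither Rdh1 nor Rdh9 in full. Whether such reads were present was not tested.

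**Figure D1:**
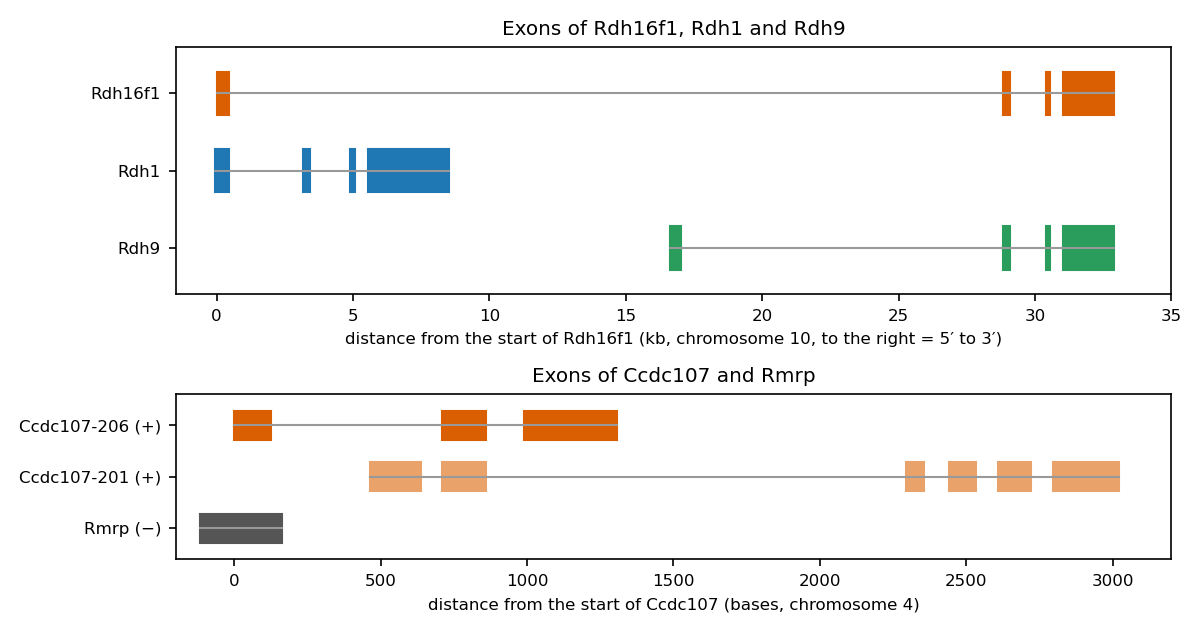
Exons (boxes) of Rdh16f1, Rdh1 and Rdh9 by distance in kb from the start of Rdh16f1, and exons of 2 Ccdc107 transcripts and of Rmrp by distance in bases from the start of Ccdc107. The first exon of Rdh16f1 lies in that of Rdh1 and its other 3 exons lie in Rdh9, and Rmrp covers the first exon of 1 Ccdc107 transcript on the opposite strand.

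Trim5 (ENSMUSG00000060441, chromosome 7, 104263386 to 104288094, minus strand) was partly its own: 48.5% of its 3703 subsequences of 31 bases were found in no other listed mouse gene. Trim12c held 37.9% of them, Trim12a 12.3% and Gm4992 10.9%. A Trim5 transcript of 3655 bases matched Trim12c at 94.3% identity over an alignment of 3710 positions Trim12a at 97.0% over 952 and Gm4992 at 98.3% over 768. The longest run of coding sequence that tells Trim5 from every other listed mouse gene at a length of 31 bases covers 84 bases. It is shown with its copies to give the scale of the difference, capitals marking bases that differ from Trim5.
Trim5, minus strand, chr7:104278416-104278496 and chr7:104276834-104276836: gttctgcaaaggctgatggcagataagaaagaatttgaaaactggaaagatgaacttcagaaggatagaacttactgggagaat
Trim12a, minus strand, chr7:104305999-104306079 and chr7:104304384-104304386: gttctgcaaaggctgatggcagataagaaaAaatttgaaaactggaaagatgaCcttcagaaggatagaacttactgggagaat
Trim12c, minus strand, chr7:104346649-104346729 and chr7:104345127-104345129: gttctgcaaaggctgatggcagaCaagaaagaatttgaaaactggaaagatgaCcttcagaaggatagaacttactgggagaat
Each copy differed from Trim5 at 2 of these 84 bases.

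The other 3 genes were almost wholly their own among listed mouse genes. The share of subsequences found nowhere else was 100% for Ccdc107, 98.0% for Ttyh1 and 99.1% for Vps33a. Ccdc107 (ENSMUSG00000028461, chromosome 4, 43492900 to 43495921, plus strand) nevertheless overlaps a gene that was not found among the listed mouse genes. The first exon of 1 non-coding transcript lies entirely within Rmrp on the opposite strand. Rmrp is the RNA of RNase MRP, an abundant, structured RNA that takes part in processing of ribosomal RNA precursors. The exon is printed because its complement is Rmrp sequence.
Ccdc107 non-coding transcript, exon 1, plus strand, chr4:43492900-43493023: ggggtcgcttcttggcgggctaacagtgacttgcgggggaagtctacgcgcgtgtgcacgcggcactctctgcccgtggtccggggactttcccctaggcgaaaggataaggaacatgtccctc
All 124 bases matched Rmrp at 100% identity, and 94 of the 1597 subsequences of Ccdc107 (5.89%) were in Rmrp. The kit is stranded per the labels' protocols, but whether strand was used in counting is not given in the sources used here, so reads of Rmrp and of this exon cannot be told apart. The coding transcript drawn in the exon map starts beyond Rmrp. Ttyh1 (ENSMUSG00000030428, chromosome 7, 4119408 to 4136708, plus strand) overlaps the antisense genes 9430041J12Rik and D030047H15Rik. These were not found among the listed mouse genes either, and they held 4.74% of its subsequences. Its longest match to any other gene was 184 bases (Gen1, 91.3% identity). Vps33a (ENSMUSG00000029434, chromosome 5, 123528659 to 123573038, minus strand) had a longest match of 83 bases (Atp2b4, 92.8% identity).

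Each library sums to between 977106 and 989183, so a value is a relative amount within a library, depth is unknown, and a 0 means only that a gene is listed at 0. Canine genes took 14.7% to 17.4% of the 4 tumour-free libraries, 44.7% and 43.3% of the OSCA-32 libraries and 68.4% and 70.7% of the OSCA-40 libraries, and mouse genes together took the rest. Among tested mouse genes the median log2 difference from PBS as deposited was -0.56 with OSCA-32 and -1.53 with OSCA-40. Values are therefore given as deposited and scaled, where scaling multiplies a library so that the bulk of its genes matches the first week 0 library. The 15 vesicle genes checked (among them Cd9, Cd63, Cd81 and Tsg101) all had values, with deposited sums of 308 to 356 in tumour-free libraries, 187 and 191 with OSCA-32, against 62 and 58 with OSCA-40. Most of this sum is Cd9, which held 192 to 234 without a tumour but 29 and 26 with OSCA-40. Of the 15, 7 were tested, and Cd9 alone was called lower with OSCA-40 (-1.20 ± 0.10, adjusted p = 0.000755, limma), as were 2.36% of tested mouse genes. In serum, fewer vesicles of a kind and less RNA per vesicle cannot be told apart.

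As deposited, Rdh16f1 was listed at 0 in all 4 tumour-free libraries, at 19 and 26 with OSCA-32, against 21 and 20 with OSCA-40. The tumour and tumour-free libraries do not overlap, and both lines stood at a like level. Trim5 was also at 0 in the 4 tumour-free libraries, with 10 and 11 in OSCA-32 and 7 and 6 in OSCA-40. Both OSCA-32 libraries were above both OSCA-40 libraries. As deposited, the median log2 difference of tested mouse genes in OSCA-40 against OSCA-32 was -0.96. After scaling the order turned, with Trim5 at 14.5 and 15.5 in OSCA-32 and at 20.5 and 18.4 in OSCA-40. Ccdc107 was listed at 18 and 24 at week 0, 23 and 30 in PBS, 73 and 80 with OSCA-32, against 54 and 45 with OSCA-40. Every tumour library again stood above every tumour-free one. Such an arrangement was rare as deposited: 9 of 7655 tested mouse genes (0.118%) had every tumour library above every tumour-free library, against 49.6% with every tumour library below. Rdh16f1 and Trim5 are among the 9 by the rule that chose them, and Ccdc107 was chosen for a rise in these same libraries; the others are Apoe, Gm20594, Gm21139, Gm29013, Pf4 and Tmsb4x.

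The deposited values of Ttyh1 and Vps33a did not separate tumour from tumour-free libraries. Ttyh1 stood at 40 and 55 at week 0, 57 and 54 in PBS, 83 and 101 with OSCA-32, against 51 and 47 with OSCA-40. It was higher than PBS in both OSCA-32 libraries and lower than PBS in both OSCA-40 libraries. The median log2 difference of tested mouse genes from PBS was -0.56 and -1.53 there. Vps33a stood at 106 and 108 at week 0, 127 and 94 in PBS, 62 and 79 with OSCA-32, against 190 and 119 with OSCA-40. The second OSCA-40 library lies within the PBS range, and both OSCA-32 libraries lie below it.

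**Figure D2:**
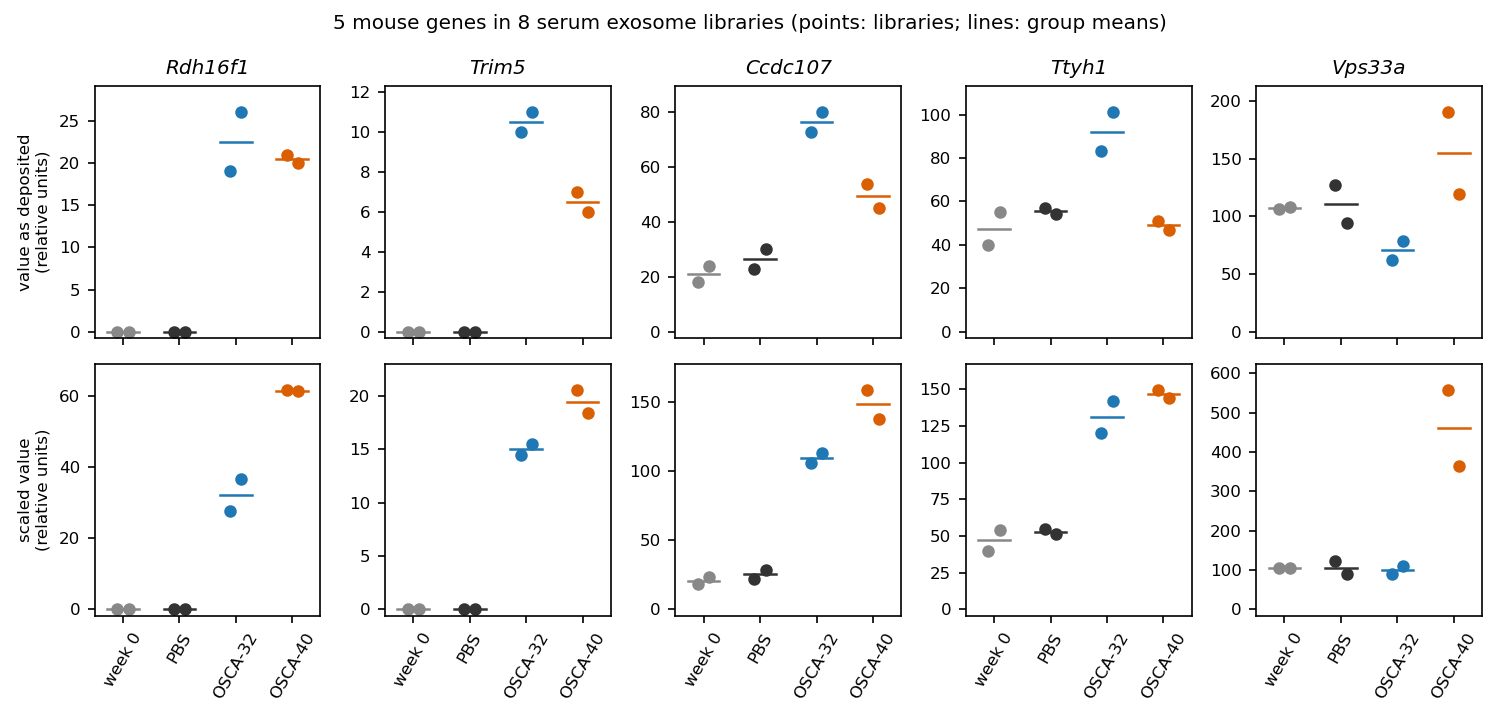
Values of the 5 genes as deposited (top) and scaled (bottom), in relative units, by group; points are libraries and lines are means of 2. Rdh16f1 and Trim5 are at 0 in the 4 tumour-free libraries, and Ttyh1 with OSCA-40 is below PBS as deposited and above it after scaling.

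After scaling, Ccdc107 went from 25.3 ± 4.50 (SD, n = 2) in PBS to 109 ± 4.93 in OSCA-32 libraries, and OSCA-40 libraries reached 148 ± 14.6. On the log2(scaled value + 1) scale these are fold changes of 2.08 ± 0.18 (SE) and 2.51 ± 0.18, and with library totals alone, which removes the scaling, they were 1.496 and 0.866. Ttyh1 went from 53.0 ± 2.51 (SD, n = 2) to 131 ± 15.6 and 147 ± 4.06, log2 fold changes of 1.29 ± 0.16 and 1.45 ± 0.16; with library totals alone these were 0.70 and -0.19, so its direction with OSCA-40 turned. Vps33a was at 106 ± 23.3 (SD, n = 2) in PBS, 101 ± 15.2 with OSCA-32 and 461 ± 137 with OSCA-40. Its log2 fold change was -0.06 ± 0.23 with OSCA-32 and 2.10 ± 0.23 with OSCA-40, where library totals alone gave 0.44 and the call was lost (adjusted p = 0.121, limma). The scaled OSCA-40 libraries, at 558 and 364, were the farthest apart of any pair for this gene. For Rdh16f1 and Trim5 no fold is given, because PBS is at 0; their scaled values were 27.5 and 36.7, and 14.5 and 15.5, with OSCA-32, and 61.6 and 61.2, and 20.5 and 18.4, with OSCA-40.

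Among tested mouse genes, limma called 0.549% against PBS with OSCA-32, of which 0.379% of the tested genes were higher, and 5.32% with OSCA-40, with 2.95% higher and 2.36% lower. Of the 5 genes, 3 were called higher with OSCA-32 (Rdh16f1, Ccdc107 and Ttyh1) and all 5 with OSCA-40. The genes were picked on these contrasts, so nothing is read from those counts. Of the 2 contrasts with PBS, both use the same PBS libraries. The call of Ttyh1 with OSCA-32 was lost without either PBS library or either OSCA-32 library (adjusted p = 0.0615 to 0.127, limma), with no filter (0.0713) and with no variance trend (0.0731), and that of Trim5 with OSCA-40 without either PBS library or either OSCA-40 library (adjusted p = 0.0503 to 0.226). With library totals alone the OSCA-40 calls of Ttyh1 (adjusted p = 0.307) and Vps33a were lost.

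**Figure D3:**
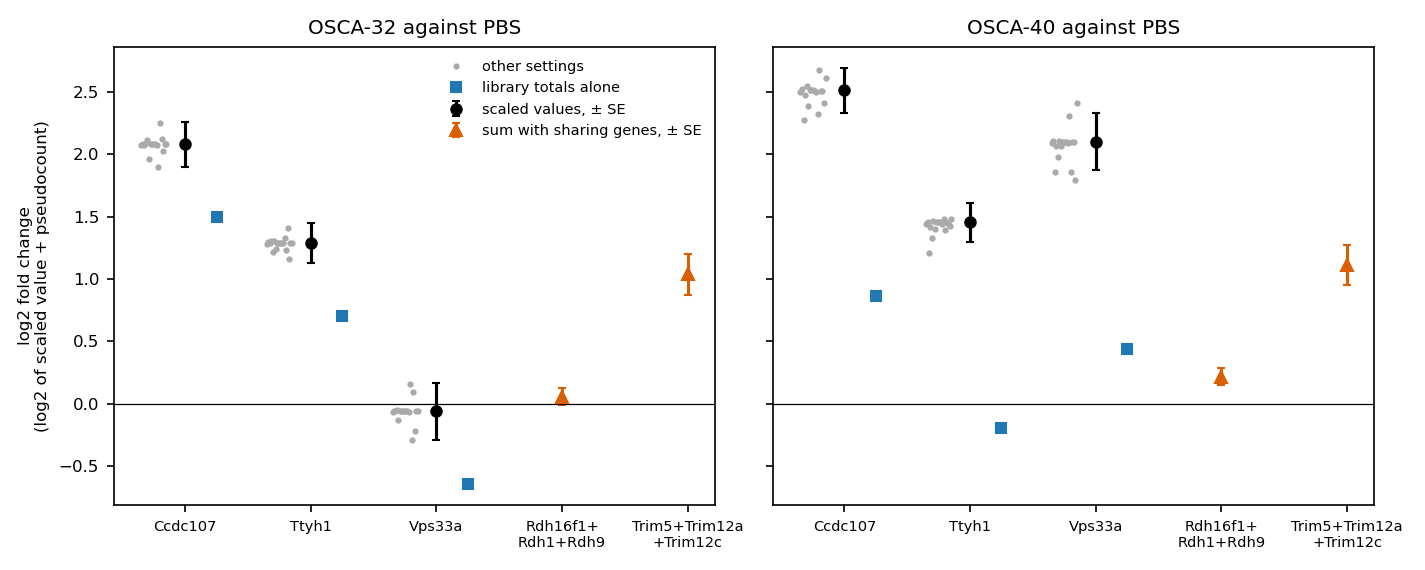
Log2 fold change against PBS for each line: scaled values with SE (black), the other settings (grey), library totals alone (blue squares), and 2 sums, of Rdh16f1 with Rdh1 and Rdh9 and of Trim5 with Trim12a and Trim12c (orange, with SE). The sum that holds Rdh16f1 lies near 0 in both lines, and the sum that holds Trim5 lies near 1. Each sum holds a gene chosen for standing at 0 in PBS and higher with tumours.

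The 2 genes from which Rdh16f1 is built were lower as deposited in every tumour library than in every tumour-free one, as were 49.6% of tested mouse genes. As deposited, Rdh9 was listed at 157 and 157 at week 0, 175 and 197 in PBS, 122 and 101 with OSCA-32, against 51 and 47 with OSCA-40. Its scaled difference from PBS was -0.16 ± 0.12 with OSCA-32 and -0.27 ± 0.12 with OSCA-40 on the log2 scale, neither of which passed (adjusted p = 0.736 and 0.248, limma). Rdh1 stood at 84 to 97 in tumour-free libraries, 58 and 64 with OSCA-32, against 35 and 34 with OSCA-40, with scaled differences of -0.05 ± 0.09 and 0.19 ± 0.09 that did not pass (adjusted p = 0.92 and 0.295, limma).

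Summed, Rdh16f1, Rdh1 and Rdh9 held 241 and 246 at week 0, 272 and 289 in PBS, 199 and 191 with OSCA-32, against 107 and 101 with OSCA-40, as deposited. The sum is lower, not higher, in every tumour library, as 49.6% of tested mouse genes were. Scaled, it was 268 ± 9.06 (SD, n = 2) in PBS, 279 ± 13.5 with OSCA-32 and 312 ± 3.33 with OSCA-40, log2 differences of 0.06 ± 0.07 and 0.22 ± 0.07. Rdh16, at 16 to 19 in tumour-free and 6 to 15 in tumour libraries, and Rdh16f2, at 2 to 11 in all, are lower still: with both in the sum the differences were 0.07 ± 0.07 and 0.21 ± 0.07. Rdh16f1 made up 0% of the sum in each tumour-free library, 9.55% and 13.6% with OSCA-32, against 19.6% and 19.8% with OSCA-40. Rdh16f1 was thus a larger part of the sum in OSCA-40 than in OSCA-32 libraries, without overlap.

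Trim5 and its copies were summed in the same way. Trim12a had 20 to 23 in tumour-free libraries, 16 and 21 with OSCA-32, against 7 and 9 with OSCA-40; Trim12c was at 0 in all 8. Together with Trim5 they held 20 to 23 in tumour-free libraries, 26 and 32 with OSCA-32, against 14 and 15 with OSCA-40, as deposited. Scaled, the sum was 19.6 ± 0.498 (SD, n = 2) in PBS, 41.4 ± 5.25 with OSCA-32 and 43.5 ± 3.43 with OSCA-40. Its log2 differences were 1.04 ± 0.16 and 1.11 ± 0.16, so the sum stayed above PBS after scaling in both lines, whereas with OSCA-40 it was below PBS as deposited. With Gm4992, listed at 0 to 2, added to the sum they were 1.08 ± 0.16 and 1.08 ± 0.16. Trim12a alone had scaled differences of 0.40 ± 0.21 and 0.27 ± 0.21 that did not pass (adjusted p = 0.596 and 0.534, limma). Because Trim5 was chosen at 0 without a tumour and higher with one, the rise of the sum follows in part from that choice.

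**Figure D4:**
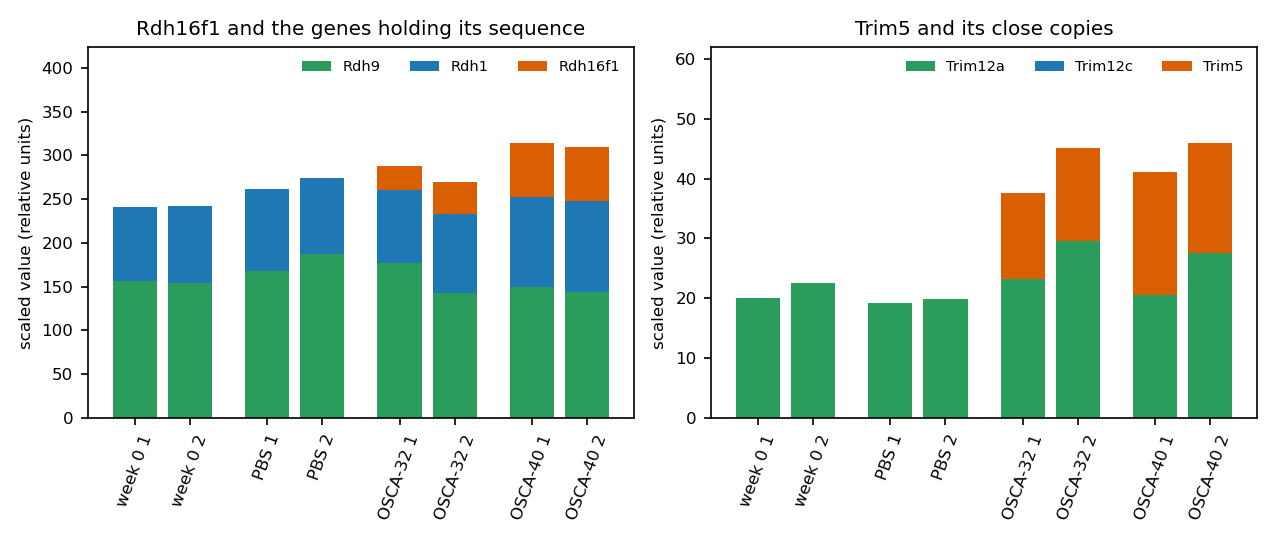
Scaled values in each library of Rdh16f1 stacked on Rdh1 and Rdh9 (left), and of Trim5 stacked on Trim12a and Trim12c (right), in relative units. The left stacks run from 241 to 314 with Rdh16f1 present in the tumour libraries alone, and the right stacks are higher in the tumour libraries. Rdh16f1 and Trim5 were chosen for being present in the tumour libraries alone.

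Whether canine reads were assigned to these 5 genes was not tested, since no canine sequence was used here. The values that stand beside the question are these. Canine genes also held values where no canine cell was present: without the 2 canine genes of highest sum over the 8 libraries, they summed to 99529 to 106268 in the tumour-free libraries, where Rdh16f1 and Trim5 were at 0. The same sum was 115272 and 113760 with OSCA-32, against 112133 and 117222 with OSCA-40. Between the lines, the canine share was 1.58 times as large with OSCA-40 as with OSCA-32, the canine sum without those 2 genes 1.00 times, the tally of canine genes listed above 0 was 1.41 times and the mouse total 0.546 times. The 5 genes lay on both sides of these ratios: as deposited, OSCA-40 held 0.911 times the OSCA-32 level of Rdh16f1, 0.619 of Trim5, 0.647 of Ccdc107, 0.533 of Ttyh1 and 2.19 of Vps33a. In this ratio Ttyh1 stood near the mouse total, and Vps33a above the canine share. From PBS to OSCA-32, however, Ttyh1 went from a mean of 55.5 to 92.0 while the mean mouse total went from 830876.5 to 550839.5. Such ratios do not measure from which species reads came. ENSCAFG00000030616, 1 of the 2 canine genes left out of that sum, was at 0 in the tumour-free libraries. It held 0 and 13 with OSCA-32, against 564602 and 582489 with OSCA-40. Its part in the value of Vps33a was not tested.

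The rule that picked Rdh16f1 and Trim5 can be set beside the same arrangement over both species. Of 1493 mouse genes at 0 in the 4 tumour-free libraries, 7 had at least 1 in each tumour library, and these 2 alone had at least 5. At a minimum of 1 the opposite arrangement was more common, with 113 of the 1809 mouse genes at 0 in every tumour library. At a minimum of 5, as in the rule, the opposite arrangement was held by 1 mouse gene, against 2. Trim5, at 6 in its lowest tumour library, is just inside the limit. Just outside it were Trav9n-4, at 8 and 6 with OSCA-32, against 3 and 3 with OSCA-40, and Gm21139, which was at 0 or 1 in tumour-free libraries and held 32, 8, 24 and 23 in the tumour libraries. Among canine genes, 314 of the 19233 at 0 without a tumour had at least 1 in each tumour library, and 16 had at least 5. Under 10% of their subsequences were their own for 5 of the 7 mouse genes, namely Gm15109, Gm18062, Rdh16f1, Trav9n-4 and Vmn2r-ps52, and not for Trim5 and Catsper3. That share, 71.4%, is close to the 75.8% among all genes at 0 in the tumour-free libraries, whereas over all mouse genes it was 8.1%.

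Ccdc107, Ttyh1 and Vps33a were not chosen for a difference between week 0 and PBS at week 8, and none passed there. Between week 0 and PBS at week 8, the log2 difference was 0.27 ± 0.18 for Ccdc107, 0.18 ± 0.16 for Ttyh1 and -0.02 ± 0.23 for Vps33a, each with an adjusted p = 1 (limma). There limma called 15 of 7872 genes, and 0.144% of the mouse genes. Between the lines, Rdh16f1 was higher with OSCA-40 by 0.93 ± 0.44 and Trim5 by 0.35 ± 0.77, and neither passed (adjusted p = 0.357 and 0.867, limma), where 1.72% of mouse genes were called, 0.758% higher and 0.967% lower. With library totals alone both took the opposite sign, at -0.12 and -0.63. For the other 3 genes the difference between the lines was part of the choice. It was 0.43 ± 0.18 for Ccdc107, 0.16 ± 0.16 for Ttyh1 and 2.16 ± 0.23 for Vps33a.

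Relatives of the 5 genes, from lists drawn up to place each in its family or pathway, were mostly not called. Of all tested mouse genes, limma called 0.549% with OSCA-32 and 5.32% with OSCA-40 against PBS. It called 0.144% in PBS against week 0 and 1.72% between the lines. With 6 to 8 genes tested per list, 0 called is close to these shares. Of 25 retinol and short-chain dehydrogenase genes with values, 8 were tested beside Rdh16f1, and 0 were called in any of the 4 comparisons; Rdh9, Rdh1 and Rdh12, at a mean of 23.3, had the highest levels. Of the Trim5 cluster and related genes 6 were tested beside Trim5 and again 0 were called; Trim14, at a mean of 27.8, Trim30a and Trim12a were the highest. The median of these lists with OSCA-40 was 0.02 and -0.18 on the log2 scale, beside -0.04 for all tested mouse genes. Of the HOPS, CORVET and related tethering genes 6 were tested beside Vps33a and 0 were called (median 0.03). Vps33b, the subunit that takes the place of Vps33a in another complex, stood at 39 and 46 in PBS and at 16 and 2 with OSCA-40, a log2 difference of -1.17 ± 0.77 that did not pass (adjusted p = 0.449, limma). Vps39, a HOPS subunit, differed by -0.23 ± 0.18 (adjusted p = 0.539).

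The tweety family and anion channel list held called genes other than its member. Beside Ttyh1, 2 of 7 tested genes were called higher with OSCA-40, 0 with OSCA-32 and 1 in OSCA-40 against OSCA-32, with a median of -0.13 against PBS in OSCA-40; of all tested mouse genes, 2.95%, 0.379% and 0.758% were called higher there. Ttyh3, a relative of Ttyh1, was listed at 115 and 129 in PBS, 141 and 120 with OSCA-32, against 111 and 98 with OSCA-40. Its scaled difference was 1.42 ± 0.13 with OSCA-40 (adjusted p = 0.00112, limma) and 0.67 ± 0.13 with OSCA-32, which did not pass (adjusted p = 0.0953), and the lines differed by 0.75 ± 0.13 (adjusted p = 0.0382). As deposited, both OSCA-40 libraries were below both PBS libraries for Ttyh3, where the median log2 difference of tested mouse genes was -1.53. With library totals alone, 6539 of 7655 tested mouse genes were called lower in OSCA-40 against PBS. Clcn7, a lysosomal chloride and proton exchanger, went from 435 and 438 in PBS to 221 and 256 with OSCA-40 as deposited, and rose by 0.77 ± 0.10 after scaling (adjusted p = 0.00415).

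Markers of tissues in which the genes are known to be active were read beside them. Of 10 neural and glial markers 7 were tested and 0 were called in any comparison, where 0.144% to 5.32% of tested mouse genes were. Their deposited sum was 192 to 226 in tumour-free libraries, 157 and 154 with OSCA-32, against 69 and 71 with OSCA-40. Of 10 hepatocyte markers 4 were tested, and Alb alone was called higher, with OSCA-40, where 2.95% of tested mouse genes were (1.74 ± 0.32, adjusted p = 0.019, limma); their deposited sum was 66 to 80 without a tumour, against 73, 84, 50 and 57 in the tumour libraries. Blood cell markers were read too. Of 3 tested platelet markers Pf4, a chemokine of platelet granules, and Ppbp, another, were called higher with OSCA-40, by 2.77 ± 0.26 (adjusted p = 0.000993, limma) and 1.62 ± 0.28 (0.0139), and Pf4 also between the lines (1.79 ± 0.26, 0.0179). Of 6 tested erythroid markers Hba-a2, an alpha globin, was called higher with OSCA-40 (1.71 ± 0.07, adjusted p = 1.74e-05) and between the lines (1.31 ± 0.07, 0.000585), and lower in PBS than at week 0 (-0.76 ± 0.07, 0.0177). Neither of 2 tested neutrophil markers was called. As deposited, Pf4 stood at 39 and 30 in PBS and at 85 and 69 with OSCA-40, while Hba-a2 stood at 184 and 189, and at 194 and 196. No marker of these 5 lists was listed at 0 throughout, and their part in the values of the 5 genes was not tested. Of the genes next to the 5 on the chromosome or overlapping them, 10 had values and 5 were tested. Clip1, beside Vps33a, was called lower with OSCA-40 (-0.94 ± 0.15, adjusted p = 0.011, limma), and no other was called in any of the 4 comparisons.

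Several of the 5 genes were most like each other in pattern, which follows in part from the rules that chose them on these libraries. Likeness is Pearson's r of log2(scaled value + 1) over the 8 libraries, given as a description without a p, because the libraries fall into tumour and tumour-free sets and share the scaling. The mouse genes most like Rdh16f1 were Trim5 (r = 0.998), Ccdc107 (0.991) and Gm12879 (0.987), and those most like Ttyh1 were Ccdc107 (0.989), Uap1 (0.985) and 2410004P03Rik (0.984). As deposited, Gm12879, Uap1 and 2410004P03Rik were lower in every tumour library than in every tumour-free one, as were 49.6% of tested mouse genes. ENSCAFG00000029071 was the canine gene most like Rdh16f1 (r = 0.998), Trim5 (0.995) and Ccdc107 (0.989); it was listed at 185 to 220 in tumour-free libraries, 1419 and 1429 with OSCA-32, against 1214 and 1206 with OSCA-40. Vps33a differed from the other 4 in its company: Obox4-ps23 was the mouse gene most like it (0.989), at 63 and 19 with OSCA-40 and at 0 elsewhere. The canine genes most like Vps33a were ENSCAFG00000031457 (0.983), ENSCAFG00000032543 (0.971) and ENSCAFG00000030616 (0.970). As deposited, ENSCAFG00000031457 fell from 2756 and 2792 in PBS to 1348 and 1154 with OSCA-40. ENSCAFG00000032543 stood at 253 and 197 in PBS and at 371 and 354 with OSCA-40. An r above 0.9 with Rdh16f1 was reached by 95 of 7654 mouse genes (1.24%) and 75 of 217 canine genes (34.6%), and with Vps33a by 62 (0.810%) and 31 (14.3%). With OSCA-40, 124 of the 217 canine genes were called higher than PBS, against 226 of 7655 mouse genes. Rdh16f1 and Vps33a were chosen for a rise with tumours, so these shares follow in part from the choice. A canine gene at 0 without a tumour was tested only if at least 2 tumour libraries reached 10. The canine shares therefore follow in part from that filter too.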

How the data were processed

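The authors deposited a score, 1 whole number per gene and library, summarised per gene from kallisto as the file is named. It is not named a count here because library sums are nearly equal, as for a relative amount made whole, and not as for raw reads. Per the submitters' processing notes, FastQC 0.11.5, Trimmomatic 0.33.0 and kallisto 0.43.0 were used with GRCm38.p5 and CanFam3.1; which index and annotation release were used is not stated there. Depth is unknown, so no counting interval is given.

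Genes at 10 or more in at least 2 libraries were kept (7655 mouse, 217 canine). Libraries were scaled by an unweighted trimmed mean of log ratios (30% of ratios and 5% of levels trimmed at each end). limma 3.58.1 (R 4.3.3) was fitted to log2(scaled value + 1) over all 8 libraries with a variance trend, 4 residual degrees of freedom and Benjamini-Hochberg adjustment over all 7872 genes at 0.05. On simulated data for OSCA-40 against PBS (5780 genes) the fit found 26 of 89 genes set to a 2-fold change, 51 of 85 set to a 4-fold change, and 5 unchanged ones.

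Symbols, coordinates and transcripts come from GENCODE mouse M21, which matched 31171 of 31300 identifiers. Shared sequence was found with subsequences of 31 bases on both strands and with BLAST 2.17.0 (at least 90% identity over 50 bases). The authors' index may differ from this release. The 23 stable structural RNAs listed for comparison were not found among the listed mouse genes, so they were not analysed.

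The members and lists were chosen with earlier results of these data known. The rule for named genes takes the 5 genes, the called genes and the 3 highest of each list, neighbours, genes sharing sequence, the genes most alike in pattern, and genes at 0 in tumour-free libraries alone; many of these are given as counts. Cd63, Cd81, Tsg101, Rdh16f2, Gm21139 and the genes whose tumour libraries all stood higher as deposited fall outside it and were named with their values known. Replicate numbers are shared between groups, but same-numbered libraries did not deviate together (correlations of -0.06 to 0.01).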

Additional observations from a re-analysis of the deposited data

Results flagged for a closer look

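The change of Vps33a differed between the tumour lines in the fit that compares them: OSCA-40 was above OSCA-32 by 2.16 on the log2 scale (adjusted p = 0.00511, limma), with both OSCA-40 libraries above both OSCA-32 libraries as deposited and scaled. The gene was chosen for a rise in at least 1 line in these libraries, so the p is no independent support. The difference passed without each of the 8 libraries (1.86 to 2.47) and with library totals alone (1.08).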

How the results depend on the processing

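Genes called numbered 85 for OSCA-32 and 538 for OSCA-40 (each against PBS), 15 for PBS against week 0, and 200 between the lines; counts below keep this order. Library totals alone gave 1353, 6726, 12 and 4638, no filter 166, 2434, 2 and 1728, a mean of at least 50 gave 131, 390, 24 and 219, no variance trend 75, 303, 5 and 110, only the groups compared 45, 301, 2 and 74, and a minimum of 5 gave 8 in PBS against week 0. Without 1 library each the counts ran from 37 to 84, 262 to 524, 2 to 10 and 63 to 182. With the replicate number as a block they were 60, 451, 5 and 135; the numbers do not pair the libraries, and no call of the 5 genes changed with the block. The share of called mouse genes that were higher went from 69.0% to 1.71%, 55.5% to 0.229%, 45.5% to 62.5% and 43.9% to 0.309% with library totals alone.

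With library totals alone the sign turned for Ttyh1 in OSCA-40 against PBS (-0.19), for Vps33a in PBS against week 0 (0.0313), and in OSCA-40 against OSCA-32 for Rdh16f1 (-0.12), Trim5 (-0.63), Ccdc107 (-0.63) and Ttyh1 (-0.90; -0.0758 with no filter). Without 1 library each, Vps33a ran from -0.29 to 0.15 in OSCA-32 against PBS and from -0.24 to 0.21 in PBS against week 0, and Ttyh1 from -0.0279 to 0.40 in the latter. Trim5 was not called in OSCA-32 against PBS (adjusted p = 0.0805) and was in 5 of 16 alternatives. The sums of Rdh16f1 and of Trim5 with genes that share sequence were chosen after seeing the data. Ccdc107 was called against PBS in both lines in all 18 alternatives that kept it. Trim5, Rdh16f1 and Ccdc107 fall under a mean of 50, and Trim5 also falls under the minimum of 10 without either OSCA-32 library. The cause of these shifts was not tested.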
